A study of Mus musculus with 6 samples.

Results

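The genes described here encode the hormones of colonic enteroendocrine cells, the enzyme that starts their serotonin synthesis, and the granins and convertase of their secretory granules. The 10 members, Tph1, Tac1, Pyy, Gcg, Insl5, Cck, Sct, Chga, Chgb and Pcsk1, were taken by name, each from the probe set that names that gene alone, out of 19938 genes measured. Each member has 1 such probe set. Each of 6 Affymetrix arrays holds the RNA of 1 sample of epithelial cells from the mouse colon, sorted as positive for EpCAM and negative for CD45. All samples came from wild-type male BALB/c mice aged 6 weeks that were starved for 36 h and had food again for 24 h. In 3 samples the mice were re-fed without treatment (re-fed), and in 3 they were treated with antibiotics during the re-feeding (antibiotics). The antibiotic agents are not named in the sources used here, and both groups share the fast. GEO's labels name biological replicates without giving the number of mice behind each, so p-values measure the spread between these samples.

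Enteroendocrine cells are scattered hormone-secreting cells of the gut lining. In the colon, L cells make peptide YY, the proglucagon peptides and insulin-like peptide 5, and enterochromaffin cells make serotonin, often with substance P. Gut bacteria and their fatty acids are known to act on both kinds of cell, and Tph1 of the colon is known to depend on the microbiota. The hormones are made as precursors, cleaved by prohormone convertases such as Pcsk1, and stored in dense-core granules with the chromogranins.

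All values are log2 expression levels after quantile normalisation, and differences are taken on that scale as the antibiotics mean less the re-fed mean. Where 3 values are listed for a group, they are those of replicates 1, 2 and 3. Of the 10 members, 9 lay above the floor for dim signal (5.81) and were tested with limma. Cck lay below it. Array medians of the deposited values ranged from 5.63 to 6.17. By the values they share, replicates 2 and 3 of the re-fed group and replicates 1 and 2 of the antibiotics group seem to come from 1 common normalisation run (372 to 435 shared values per pair), against 154 to 198 for re-fed replicate 1 and 42 to 67 for antibiotics replicate 3. That array also stands apart in its deposited median, the lowest of the 6, and in holding 10829 distinct values against 34568 or more on each other array. The difference within these 4 arrays is therefore given beside that over 6 for the tested members and for several other genes. Epcam stood at 12.16 ± 0.11 in re-fed and 12.12 ± 0.065 in antibiotics samples (mean ± SD, n = 3 per group, as for all such values). Ptprc, which encodes CD45, lay under the floor on each of the 6 arrays (5.30 to 5.54).

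Among the members, Tph1 lay furthest below its re-fed level with antibiotics, and Tac1 came next. The L cell hormones Pyy, Gcg and Insl5 and the granins Chga and Chgb had nearly equal group means but a wide spread among the antibiotics arrays, where all 5 were lowest in replicate 2. Sct and Pcsk1 leaned the other way, within the spread of the arrays. By limma's test with Benjamini-Hochberg adjustment over all 12071 genes tested, 0 of the 9 tested members passed 0.05, where 0.058% of all tested genes did (7 genes). At an unadjusted p under 0.05 there were 2 members, Tph1 and Tac1, both lower, where 12.6% of all tested genes had such a p, 7.32% lower and 5.3% higher. The groups did not overlap in the same 2 members, again both lower, where 10.7% of all tested genes separated that way and 19.6% in either direction. With 9 genes tested, a count of 2 is near what the share over all genes gives. The median difference of the 9 was -0.039 and that of all tested genes 0.0033. Within the 4 arrays of the common run the median of the 9 was -0.26, against 0.012 for all tested genes, and 0 members passed, where 0.447% of all tested genes did. In bulk RNA, fewer enteroendocrine cells and less RNA per cell cannot be told apart.

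**Figure D1:**
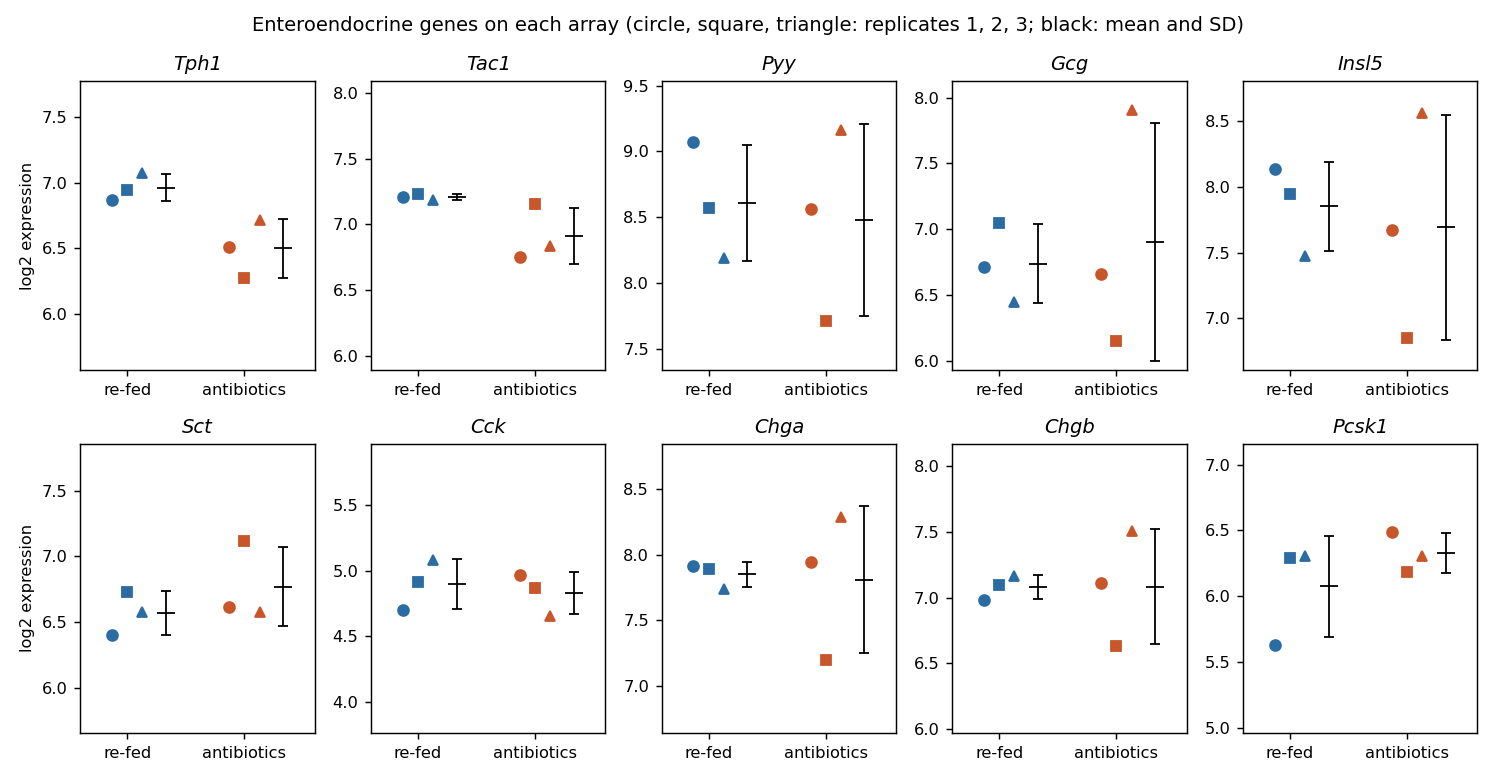
Log2 expression (vertical axis, panels of equal span) of the 10 genes on each array, with re-fed samples in blue and antibiotics samples in orange, circles, squares and triangles for replicates 1, 2 and 3, and the group mean ± SD in black. Tph1 and Tac1 separate the groups, while Pyy, Gcg, Insl5, Chga and Chgb are lowest in antibiotics replicate 2. They are highest in antibiotics replicate 3 on this scaling, which in the deposited values holds for Gcg alone.

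**Figure D2:**
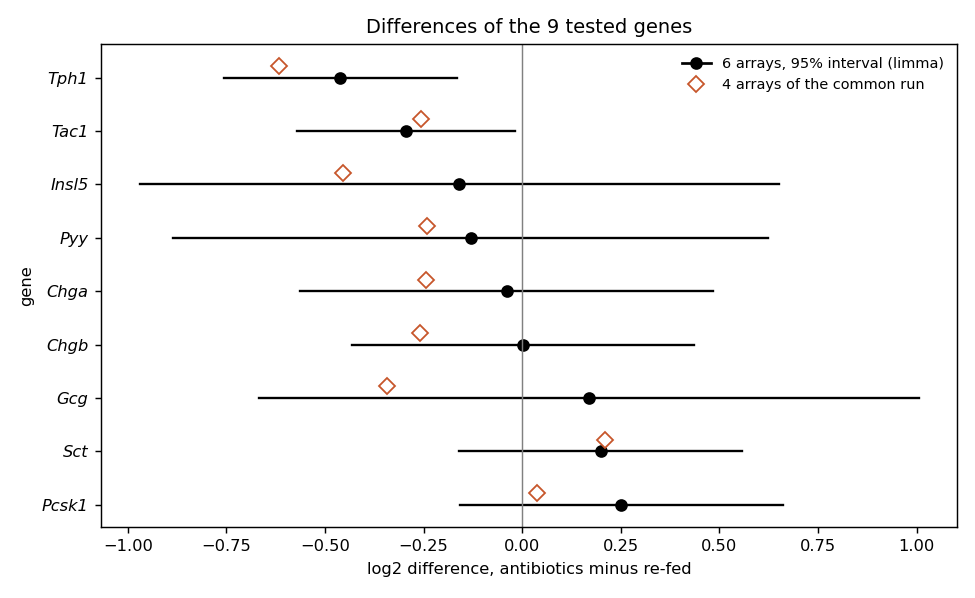
Log2 difference (antibiotics less re-fed) of the 9 tested genes over 6 arrays (black points with limma's unadjusted 95% interval) and within the 4 arrays of the common run (open diamonds). The intervals of Tph1 and Tac1 end below 0, those of the other 7 genes include 0, and no gene passed the adjusted test.

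Tph1 encodes tryptophan hydroxylase 1, the rate-limiting enzyme of serotonin synthesis outside the nervous system. It stood at 6.87, 6.94 and 7.07 on the re-fed arrays and at 6.51, 6.27 and 6.72 on the antibiotics arrays. All 3 antibiotics arrays lay below all 3 re-fed arrays, and the same held for the deposited values without further scaling. The group means were 6.96 ± 0.10 and 6.50 ± 0.22, a difference of -0.46 (SE 0.13, 95% interval -0.76 to -0.17), or a 1.38-fold lower level (limma, unadjusted p = 0.0062, adjusted p = 0.231). Within the common run the difference was -0.62 (adjusted p = 0.0793). Leaving out any 1 array gave -0.35 to -0.57. With array weights, where 9.68% of all tested genes passed, the difference was -0.49 (adjusted p = 0.0158).

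Mast cells also make serotonin through Tph1, and since they carry CD45 the sort should remove them. Of 11 mast cell markers measured, 3 lay above the floor and none of them passed: Hdc, the histamine-forming enzyme, differed by -0.24, the receptor Kit by 0.17 and the tryptase Tpsb2 by 0.064 (adjusted p = 0.498 to 0.844). The carboxypeptidase Cpa3 and the proteases Mcpt1, Mcpt2 and Mcpt4, which define the lineage, lay under the floor on every array. The mean level over the 11 ranged from 4.88 to 5.01 in re-fed and from 4.90 to 4.94 in antibiotics samples. Whether mast cells add to the Tph1 signal was not tested.

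RefSeq lists 2 starts for Tph1 on the mouse assembly GRCm38.p6. The 250 bases before the downstream start are shown because Tph1 had the largest difference of the members, with its GC boxes (GGGCGG or its reverse complement) in capitals. The window lies at chr7:46667378-46667627 on the minus strand, upstream of that start, and ends at the base before it.
Tph1: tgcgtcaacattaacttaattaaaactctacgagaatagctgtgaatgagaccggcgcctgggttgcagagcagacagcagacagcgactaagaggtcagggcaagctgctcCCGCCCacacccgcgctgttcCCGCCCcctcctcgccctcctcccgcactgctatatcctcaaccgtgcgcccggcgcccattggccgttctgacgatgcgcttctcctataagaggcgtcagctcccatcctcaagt
It holds 2 GC boxes, 138 and 117 bases before the start, a motif found in 32.7% of 32851 RefSeq promoter windows of this length. The other start's window holds none.

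The list of genes that make, store, carry and break down serotonin, beside Tph1, covers 10 genes, 9 of them tested, and 0 passed over 6 arrays. Their levels are those of the sorted epithelial cells as a whole, and which cells carry each gene was not tested. At an unadjusted p under 0.05, 2 were lower and 1 higher, where 7.32% of all tested genes were lower and 5.3% higher, and the median difference was -0.12. The groups did not overlap in 3 lower genes and 1 higher gene of the 9, where 10.7% of all tested genes separated lower and 19.6% in either direction. Within the common run 1 gene of the list passed, Gch1, where 0.34% of all tested genes passed lower.

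Gch1, GTP cyclohydrolase 1, makes the first committed step towards tetrahydrobiopterin, the cofactor that tryptophan hydroxylase needs. It stood at 6.65, 6.73 and 6.86 on the re-fed arrays and at 6.06, 6.13 and 5.90 on the antibiotics arrays. The groups were far apart relative to their spread, at 6.75 ± 0.10 and 6.03 ± 0.12. The difference of -0.71 (SE 0.11), a 1.64-fold lower level, had an adjusted p of 0.0692 over 6 arrays and of 0.0467 within the common run, where it was -0.70. It also passed with median centring (-0.73, adjusted p = 0.0356), where 0.514% of all tested genes passed, and with array weights (-0.70, adjusted p = 0.00317).

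Spr, sepiapterin reductase, makes the last step to the same cofactor and lay on the other side. It stood at 7.98, 7.87 and 7.997 on the re-fed arrays and at 8.62, 8.42 and 8.28 on the antibiotics arrays, with no overlap. The difference was 0.49 (SE 0.12, adjusted p = 0.162) over 6 arrays and 0.59 (adjusted p = 0.0796) within the common run. With array weights Spr passed, at 0.64 (adjusted p = 0.0062).

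Slc18a1, the vesicular monoamine transporter VMAT1 that loads serotonin into granules of enterochromaffin cells, stood at 6.07, 6.05 and 6.19 on the re-fed arrays and at 5.66, 5.47 and 5.95 on the antibiotics arrays. The groups did not overlap. The difference was -0.41 (SE 0.13, adjusted p = 0.273) and -0.56 (adjusted p = 0.0888) within the common run, and with array weights it passed (-0.45, adjusted p = 0.019). Of the 3 antibiotics arrays, replicates 1 and 2 lay under the floor for dim signal in this gene.

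The other genes of the serotonin list showed smaller differences. Maoa, the monoamine oxidase that breaks serotonin down, stood at 11.39 ± 0.10 in re-fed and 11.18 ± 0.067 in antibiotics samples (-0.21, SE 0.10, adjusted p = 0.431), with no overlap between the groups. Ddc, the decarboxylase of the second step, and Slc6a4, the serotonin reuptake transporter, are named here after their values were seen. Ddc differed by 0.15 (SE 0.14) and Slc6a4 by -0.10 (SE 0.14), with overlapping groups, and the sign of Ddc turned with the deposited scaling and with median centring. Pts and Qdpr, also of the cofactor's supply, are likewise named after their values were seen. Pts differed by -0.12 (SE 0.14, adjusted p = 0.767) and Qdpr by 0.17 (SE 0.13, adjusted p = 0.63), with overlapping groups.

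**Figure D3:**
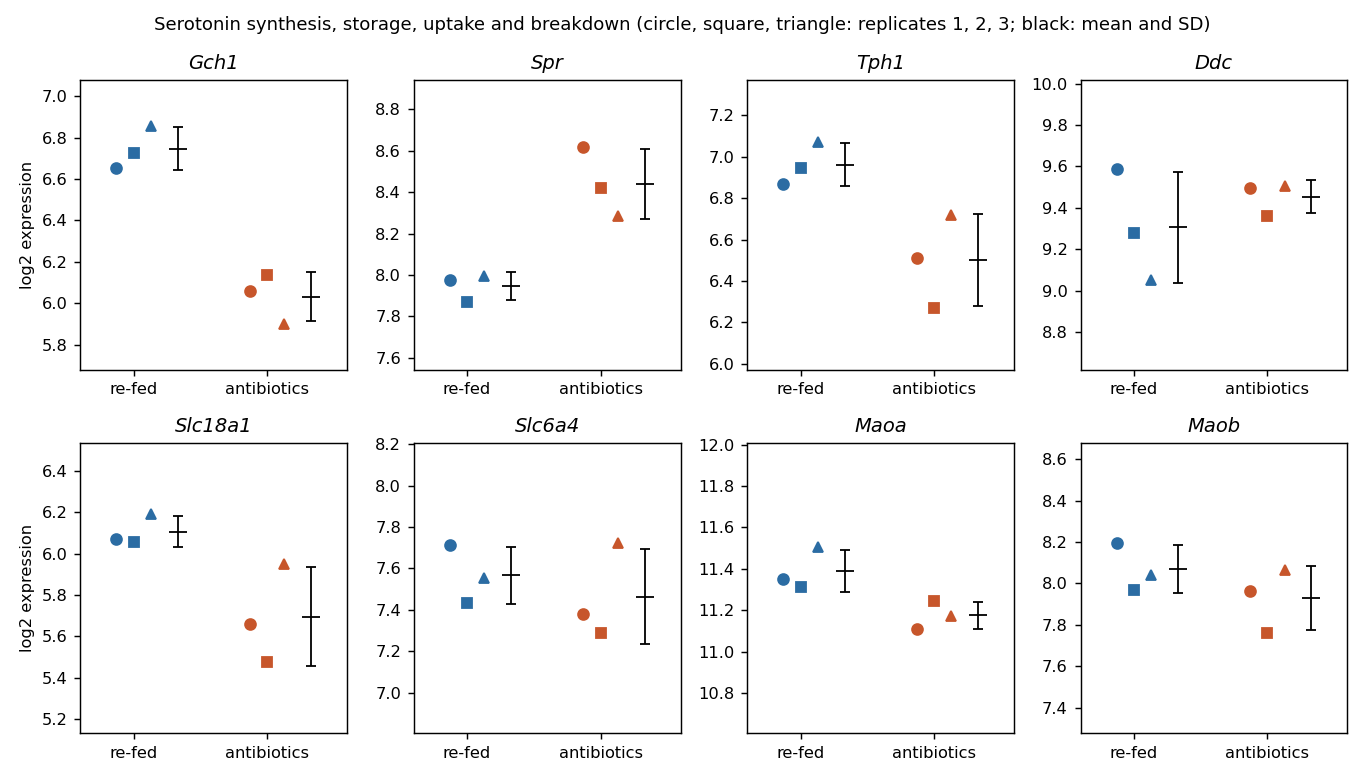
Log2 expression (vertical axis, panels of equal span) of genes that supply the cofactor (Gch1, Spr), make serotonin (Tph1, Ddc), store it (Slc18a1), take it up (Slc6a4) and break it down (Maoa, Maob) on each array, with symbols as in the plot of the 10 members. Gch1, Tph1, Slc18a1 and Maoa lie lower and Spr lies higher in all 3 antibiotics samples, while Ddc, Slc6a4 and Maob overlap. Pts and Qdpr, also of the cofactor's supply, overlap and are not shown. Of all tested genes, 19.6% separate in either direction.

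Tac1 encodes the precursor of substance P and neurokinin A, which enterochromaffin cells of the colon can release with serotonin. It stood at 7.20, 7.23 and 7.18 on the re-fed arrays and at 6.75, 7.15 and 6.83 on the antibiotics arrays. The re-fed arrays were tightly grouped, and antibiotics replicate 2 came close to the lowest of them. The group means were 7.21 ± 0.023 and 6.91 ± 0.21, a difference of -0.30 (SE 0.12, 95% interval -0.57 to -0.019), or 1.23-fold (unadjusted p = 0.0388, adjusted p = 0.37). In the deposited values the groups overlapped. Within the common run the difference was -0.26 (adjusted p = 0.389), and of the alternatives run it passed with array weights alone (-0.40, adjusted p = 0.0344).

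Enteric neurons also make Tac1, and since they lack EpCAM the sort should remove them. Of 15 neuron and glia markers, 13 were measured and 3 lay above the floor, Sox10 (0.25), Elavl3 (0.096) and Ret (-0.063), of which none passed (adjusted p = 0.455 to 0.842). Of the neuronal RNA-binding protein genes, Elavl4 lay under the floor on every array, while Elavl3 stood at 6.13 ± 0.22 in re-fed and 6.23 ± 0.090 in antibiotics samples. Whether neurons add to the Tac1 signal was not tested. The mean level over the 13 ranged from 5.42 to 5.52 in re-fed and from 5.46 to 5.51 in antibiotics samples.

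Pyy, peptide YY, is an L cell hormone that slows transit and curbs appetite. It stood at 9.07, 8.57 and 8.19 on the re-fed arrays and at 8.56, 7.71 and 9.16 on the antibiotics arrays. The lowest and the highest of the 6 values both came from antibiotics arrays, the highest from re-fed replicate 1 in the deposited values, and the groups overlapped. The group means, 8.61 ± 0.44 and 8.48 ± 0.73, differed by -0.13 (SE 0.34, adjusted p = 0.902), and by -0.24 within the common run. The 95% interval ran from -0.88 to 0.62, on both sides of 0.

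Gcg encodes proglucagon, the source of GLP-1 and GLP-2 in L cells. It stood at 6.72, 7.05 and 6.45 on the re-fed arrays and at 6.66, 6.15 and 7.91 on the antibiotics arrays. Antibiotics replicate 3 lay above the other 5 arrays, and antibiotics replicate 2 below them. The difference was 0.17 (SE 0.37, 95% interval -0.67 to 1.005, adjusted p = 0.885), and it turned to -0.34 within the common run and to -0.33 without antibiotics replicate 3.

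Insl5, insulin-like peptide 5, is an L cell hormone found chiefly in the colon and rectum. It stood at 8.13, 7.95 and 7.48 on the re-fed arrays and at 7.67, 6.85 and 8.56 on the antibiotics arrays. The order of the antibiotics arrays was that of Pyy and Gcg on this scaling. The difference was -0.16 (SE 0.36, 95% interval -0.97 to 0.65, adjusted p = 0.888), and -0.45 within the common run (adjusted p = 0.402).

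Chga and Chgb encode chromogranins A and B, acidic proteins that help to form dense-core granules in all enteroendocrine cells. Chga stood at 7.92, 7.89 and 7.74 on the re-fed arrays and at 7.94, 7.20 and 8.29 on the antibiotics arrays. Chgb stood at 6.98, 7.09 and 7.17 on the re-fed arrays and at 7.11, 6.63 and 7.51 on the antibiotics arrays. For both, the re-fed arrays lay within 0.17 to 0.18 of each other, while the antibiotics arrays spanned 1.09 for Chga and 0.88 for Chgb. The differences were -0.039 (SE 0.23, 95% interval -0.56 to 0.48) and 0.0022 (SE 0.19, 95% interval -0.43 to 0.44), with adjusted p of 0.965 and 0.998. Within the common run they were -0.25 and -0.26.

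These 5 genes were lowest in antibiotics replicate 2 with quantile normalisation, with the deposited scaling and with median centring. Which array was highest depended on the scaling: it was antibiotics replicate 3 in 5 of the 5 after quantile normalisation, in 4 with median centring (all but Pyy) and in 1, Gcg, in the deposited values, where a re-fed array was highest in the other 4. After quantile normalisation, the level in antibiotics replicate 3 exceeded that in antibiotics replicate 2 by 2.73-fold in Pyy, 3.39-fold in Gcg, 3.28-fold in Insl5, 2.13-fold in Chga and 1.83-fold in Chgb. In the deposited values these folds were 1.77 in Pyy, 2.25 in Gcg, 2.13 in Insl5, 1.42 in Chga and 1.25 in Chgb. Over the 6 arrays, the 10 pairs among them had Pearson correlations of 0.72 to 0.97 (0.38 to 0.95 in the deposited values). These values only describe 6 samples that share the cell sort and, after quantile normalisation, the scaling. After quantile normalisation, the mean level of goblet cell markers, from the other main secretory lineage, was also lowest in antibiotics replicate 2. Over the 8 measured it was 11.87, 12.09 and 12.05 on the re-fed arrays and 11.94, 11.54 and 11.90 on the antibiotics arrays. It was not highest in antibiotics replicate 3. Its order of arrays on the other scalings was not examined, and the part of goblet cells in this pattern was not tested.

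**Figure D4:**
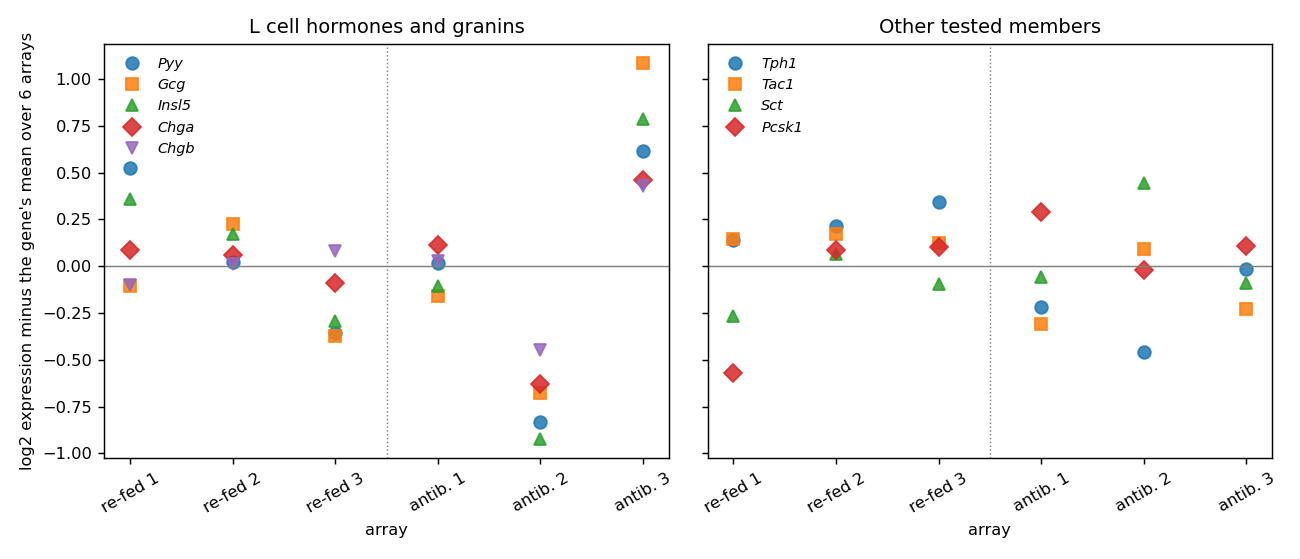
Log2 expression of each tested gene minus its mean over 6 arrays (vertical axis), by array (horizontal axis), for the L cell hormones with the granins (left) and the other 4 genes (right), with a dotted line between re-fed and antibiotics arrays. The 5 genes on the left are all lowest in antibiotics replicate 2. All 5 are highest in antibiotics replicate 3 after quantile normalisation, but only Gcg is in the deposited values.

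Tph1 was set against the granins array by array, a comparison chosen after the values were seen and given with no test. Tph1 minus the mean of Chga and Chgb was -0.58, -0.55 and -0.38 on the re-fed arrays and -1.01, -0.64 and -1.18 on the antibiotics arrays. The groups did not overlap, with antibiotics replicate 2 closest to the re-fed arrays. Such a ratio does not show which gene changed, and how often other gene pairs separate in this way was not counted.

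The 250 bases before the RefSeq start are shown for 5 members that each hold a motif match there (GRCm38.p6). Tac1, Cck and Sct also hold matches and are not shown. Of the 5 genes lowest in antibiotics replicate 2, Pyy is not shown, since neither of its windows holds a match, and Pcsk1, which does not share that order, is. Capitals mark matches on either strand to 4 motifs. The first is the cAMP response element, TGACGTNA. The second is CAGATG, an E-box of the kind bound by the endocrine factor NeuroD1. The third is the TATA box, spelled here as TATAAA. The last is the GC box given for Tph1. The cAMP element was first searched as TGACGTCA and widened when the sequences had been read. Gcg lies at chr2:62483654-62483903 (minus strand), Insl5 at chr4:103026729-103026978 (minus strand, the downstream of 2 starts), Chga at chr12:102554691-102554940 (plus), Chgb at chr2:132781392-132781641 (plus) and Pcsk1 at chr13:75089607-75089856 (plus). Each window ends at the base before the start named.
Gcg: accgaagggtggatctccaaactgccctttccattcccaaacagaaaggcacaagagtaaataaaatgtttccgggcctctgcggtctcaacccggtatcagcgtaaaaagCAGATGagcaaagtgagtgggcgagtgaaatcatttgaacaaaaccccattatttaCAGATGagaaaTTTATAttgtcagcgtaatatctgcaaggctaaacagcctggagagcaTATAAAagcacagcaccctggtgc
Insl5: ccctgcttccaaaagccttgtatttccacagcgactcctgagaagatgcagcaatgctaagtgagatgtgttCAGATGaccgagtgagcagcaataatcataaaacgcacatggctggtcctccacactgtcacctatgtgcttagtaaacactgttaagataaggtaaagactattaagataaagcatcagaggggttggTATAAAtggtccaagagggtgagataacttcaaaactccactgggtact
Chga: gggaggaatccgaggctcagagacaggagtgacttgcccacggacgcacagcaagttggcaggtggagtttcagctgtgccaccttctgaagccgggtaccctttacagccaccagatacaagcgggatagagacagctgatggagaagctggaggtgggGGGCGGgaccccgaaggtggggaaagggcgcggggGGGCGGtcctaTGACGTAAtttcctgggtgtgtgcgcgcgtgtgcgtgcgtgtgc
Chgb: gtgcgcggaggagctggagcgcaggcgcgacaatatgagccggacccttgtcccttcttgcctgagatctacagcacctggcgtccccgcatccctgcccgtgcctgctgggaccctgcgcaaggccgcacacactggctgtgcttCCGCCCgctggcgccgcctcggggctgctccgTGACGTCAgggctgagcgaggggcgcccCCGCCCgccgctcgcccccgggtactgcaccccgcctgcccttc
Pcsk1: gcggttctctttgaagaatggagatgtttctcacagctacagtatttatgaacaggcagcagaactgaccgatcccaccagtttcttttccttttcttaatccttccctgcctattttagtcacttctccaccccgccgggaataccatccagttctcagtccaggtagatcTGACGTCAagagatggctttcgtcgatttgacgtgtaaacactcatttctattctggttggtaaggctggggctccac
The cAMP element stands 44 bases before the start of Chga, 72 before that of Chgb and 78 before that of Pcsk1. These are the 3 of 10 members with a match, and 2.52% of 32851 RefSeq promoter windows hold one. In the narrower form the element is in Chgb and Pcsk1 and in 1.55% of windows. Members are counted by gene, some with 2 windows, and the wider form was chosen on these sequences, so the counts are no test of enrichment. Gcg holds the E-box 139 and 83 bases and Insl5 178 bases before the start. That motif is in 5 of the 10 members, at 1 start or more, and in 14.4% of windows. The TATA box closest to the start lies 24 bases before it in Gcg and 49 in Insl5, and 3 of the 10 members and 12.4% of windows hold one. Chga and Chgb hold 2 GC boxes each, and 6 of the 10 members and 32.7% of windows hold that motif. A match describes these letters and shows no binding.

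Pcsk1, prohormone convertase 1/3, cuts proglucagon and other precursors into active hormones. It stood at 5.63, 6.29 and 6.31 on the re-fed arrays and at 6.49, 6.18 and 6.31 on the antibiotics arrays. Re-fed replicate 1 was low and under the floor, and the other 5 arrays lay within 0.31 of each other. The difference was 0.25 (SE 0.18, 95% interval -0.16 to 0.66, adjusted p = 0.596) and was 0.038 within the common run. Pcsk1 did not share the order of arrays seen in Chga and Chgb.

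Sct encodes secretin, known from small-intestinal S cells and also made by other enteroendocrine cells. It stood at 6.40, 6.73 and 6.57 on the re-fed arrays and at 6.61, 7.11 and 6.58 on the antibiotics arrays. Antibiotics replicate 2, the array lowest in the L cell hormones, was the highest in Sct. The difference was 0.20 (SE 0.16, 95% interval -0.16 to 0.56, adjusted p = 0.629) and 0.21 within the common run. Cck, cholecystokinin, chiefly a hormone of the proximal small intestine, lay under the floor on all 6 arrays (4.65 to 5.08). Its difference was -0.069, and in the limma fit without a filter on dim probe sets its adjusted p was 0.917.

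Among 8 other gut hormones, 4 lay above the floor and 0 passed. Sst, the somatostatin of D cells, stood at 7.06, 6.85 and 6.53 on the re-fed arrays and at 6.44, 6.40 and 7.30 on the antibiotics arrays (-0.10, SE 0.24). Within the common run the difference was -0.27. Sst was highest in antibiotics replicate 3 here but in re-fed replicate 2 in the deposited values. Ghrl (ghrelin) was highest in antibiotics replicate 3 as well, at 7.06 against 6.53 to 6.74 on the other arrays (0.13, SE 0.14), and Gast (gastrin) likewise, at 6.42 against 5.77 to 6.12 (0.16, SE 0.16), but both were highest in antibiotics replicate 1 in the deposited values. Gip, an incretin of the upper intestine, differed by -0.025 (SE 0.12). The adjusted p of the 4 ranged from 0.729 to 0.955.

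Of 12 other genes of granules and prohormone processing, 11 were measured, 6 tested and 0 passed, 3 above and 3 below 0 with a median of -0.037. Qpct, glutaminyl cyclase, which caps the N terminus of peptide hormones, stood at 8.75, 8.79 and 8.86 on the re-fed arrays and at 8.25, 8.33 and 7.94 on the antibiotics arrays. The groups did not overlap, and the difference was -0.63 (SE 0.12, adjusted p = 0.114) over 6 arrays and -0.53 (adjusted p = 0.0766) within the common run. Its lowest value was in antibiotics replicate 3, the array with the highest granin levels on this scaling. With array weights Qpct passed (-0.57, adjusted p = 0.00642). Pcsk1n, which encodes the convertase inhibitor proSAAS, differed by 0.14 (SE 0.10) and Pam, the enzyme that amidates peptide hormones, by -0.13 (SE 0.11). Of 14 genes of exocytosis and excitability, 12 were tested and 0 passed, with a median of -0.0059. Rph3al, a Rab effector of granule release also called Noc2, differed by 0.19 (SE 0.10) and Abcc8, the sulfonylurea receptor, by 0.13 (SE 0.12).

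Of 17 transcription factors of enteroendocrine fate, 14 were measured and 4 tested, and 0 passed. The fate-setting factors Neurog3 and Neurod1 lay under the floor on every array. Insm1, a factor of endocrine progenitors, stood at 6.14, 6.16 and 5.98 on the re-fed arrays and at 6.26, 6.18 and 6.40 on the antibiotics arrays (0.19, SE 0.11, adjusted p = 0.502). Rfx3 differed by -0.35 (SE 0.13, adjusted p = 0.32), Foxa1 by 0.29 (SE 0.11, adjusted p = 0.325) and Foxa2 by 0.091 (SE 0.13). In Insm1, Rfx3 and Foxa1, 3 of the 4 tested, the groups did not overlap, where 19.6% of all tested genes separate. The other 10 measured were too dim to test. Foxa1 stood at 9.84 ± 0.13 in re-fed and 10.13 ± 0.051 in antibiotics samples, and which cells carry these 3 genes was not tested. Within the common run the differences of the 3 were 0.15, -0.19 and 0.21.

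Of 14 receptors and transporters that sense luminal nutrients and irritants, 13 were measured, 7 tested and 0 passed, 6 above 0 and 1 below, with a median of 0.11. The calcium-sensing receptor Casr differed by 0.17 (SE 0.12), the sodium-glucose transporter Slc5a1 by 0.15 (SE 0.11) and the long-chain fatty acid receptor Ffar4 by -0.22 (SE 0.21). Of 15 receptors for the members' products, 3 were tested and 0 passed. The serotonin receptor Htr4 stood at 6.98, 7.03 and 7.05 on the re-fed arrays and at 7.34, 7.24 and 7.56 on the antibiotics arrays, with no overlap (0.36, SE 0.11, adjusted p = 0.26, and 0.25 within the common run). Of the 14 alternatives run for Htr4, it passed in 1 (limma, adjusted p = 0.0401). The GLP-1 receptor Glp1r differed by -0.27 (SE 0.13) and Rxfp4, the receptor of insulin-like peptide 5, by 0.21 (SE 0.19).

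The genes outside the list whose levels followed the mean centred profile of the 9 tested members most closely over the 6 arrays were Hacd2 (Pearson r 0.995), Ncbp1 (0.990), Cltb (0.989), Pla2g2f (0.985) and Alcam (0.982). In each, antibiotics replicate 2 was lowest and antibiotics replicate 3 highest after quantile normalisation. In the deposited values re-fed replicate 2 was highest in all 5. There antibiotics replicate 3 was the lowest array in Hacd2, Ncbp1 and Cltb, and antibiotics replicate 2 in Pla2g2f and Alcam. With median centring re-fed replicate 2 was highest and antibiotics replicate 2 lowest in all 5. With 6 arrays and 12071 genes such values only describe the profile.

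Markers of other cells gave no call in the unweighted fit over 6 arrays. Of 14 leukocyte markers, 3 were tested (Cd3e -0.15, Cd79b 0.11, Cd68 -0.0023). Of 12 stromal markers, 6 were tested, among them Pecam1 of endothelium (-0.44, SE 0.17, and -0.65 within the common run) and the actin Acta2 (0.20, SE 0.14). Of 10 tuft cell markers, 5 were tested (Trpm5 -0.34, Avil -0.18, Gfi1b -0.094, Dclk1 -0.16, Sh2d6 0.065). Among the 8 goblet cell markers Spink4 differed by -0.59 (SE 0.23) and the secretory fate factor Atoh1, on which enteroendocrine cells also depend, by -0.47 (SE 0.21). Atoh1 stood at 9.95, 10.44 and 10.33 on the re-fed arrays and at 9.95, 9.31 and 10.06 on the antibiotics arrays, lowest in antibiotics replicate 2 on this scaling. Of 10 colonocyte markers, 4 lay above and 6 below 0, with a median of -0.072. The smallest p were those of Scnn1a (-0.57, SE 0.12), Slc9a3 (-0.63, SE 0.15), Guca2b, which encodes uroguanylin (0.52, SE 0.14), and Car2 (-0.37, SE 0.11). Of 10 epithelial markers, 1 lay above and 9 below 0, with a median of -0.11. The smallest p were those of Krt18 (-0.59, SE 0.094, adjusted p = 0.0692), Krt20 (-0.46, SE 0.12), Cdx2 (-0.32, SE 0.11) and Cdx1 (0.33, SE 0.12). With array weights, where 9.68% of all tested genes passed, Pecam1, Scnn1a, Slc9a3 and Krt18 passed (adjusted p = 0.0276, 0.0062, 0.0157 and 0.00553). Krt18 also passed with median centring and with the stricter filter.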

How the data were processed

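Biotin-labelled RNA (6 µg per sample) went onto Affymetrix arrays, per the labels' protocols. The deposited log2 values of 35557 probe sets came from RMA, which the authors' notes on processing name. RMA's version: not given in the sources used here. Because array medians differed, the 23410 probe sets that name a gene were quantile normalised here. Of these, 21789 name 1 gene, 21698 of them matched to RefSeq by Entrez identifier. A gene is its single-gene probe set with the highest mean, and 12071 of 19938 genes had a mean above the dim floor (the 40th percentile, 5.81). limma 3.58.1 (R 4.3.3; moderated two-sided test, no block) compared the groups, with Benjamini-Hochberg adjustment over all tested genes and a threshold of 0.05, and was tested on simulated data. An exact test of 3 against 3 samples cannot go below p = 0.1 and was not used. Errors are SDs between arrays, or limma's SEs. The number of arrays limits precision. Alternatives were other scalings and filters, array weights, the common run, the replicate block, averaged probe sets and leaving out arrays.

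The members, lists and tests were chosen with earlier results of these data known. The rule names the members, from each list the tested genes of lowest p (at most 4, or all where 5 or fewer were tested), Epcam, Ptprc and the 5 genes most like the members' mean profile. Genes outside it are named as dim or as named later. Some genes of the lists were not analysed here. Same-numbered samples did not deviate together (correlations 0.021, -0.034 and -0.22), so numbers were not used as pairs. Promoters are RefSeq's (GRCm38.p6), matched by symbol for all 10 members.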

Additional observations from a re-analysis of the deposited data

How the results depend on the processing

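Of the 12071 genes tested, 7 passed. The count was 45 with the deposited scaling, 62 with median centring, 2 with no filter on dim probe sets, 43 with the 60th percentile as filter, 1169 with array weights, 54 in the common run, 7 with the replicate block and 7 with averaged probe sets. It ranged from 0 (without antibiotics replicate 1, with 1040 genes at an unadjusted p under 0.05) to 11 (without re-fed replicate 3), and was 3 without re-fed replicate 2, 4 without antibiotics replicate 2 and 2 without antibiotics replicate 3. Members that passed numbered 0 in each of these, the replicate block included, except 2 with array weights, Tph1 and Tac1. The stricter filter left 5 members tested. The median difference of all tested genes, 0.0033, was -0.12 with the deposited scaling and -0.080 with median centring. The median difference of the tested members, -0.039, was -0.21 with the deposited scaling, -0.17 with median centring and -0.26 in the common run, and leaving out 1 array gave -0.28 (without antibiotics replicate 3) to 0.25 (without antibiotics replicate 2). Tph1, Tac1, Sct and Pcsk1 kept their sign under each alternative. With the deposited scaling the difference was -0.10 in Chgb, -0.043 in Ddc, -0.00075 in Pcsk1n, -0.026 in Foxa2 and -0.042 in Slc5a1. With median centring it was -0.065 in Chgb, -0.0051 in Ddc and -0.0033 in Slc5a1. With array weights it was -0.13 in Gcg, 0.017 in Chga, -0.035 in Chgb, 0.076 in Gip and 0.070 in Gfi1b. In the common run it was -0.34 in Gcg, -0.26 in Chgb, 0.094 in Gip, -0.077 in Foxa2, 0.077 in Gfi1b, -0.036 in Sh2d6 and 0.048 in Epcam. Leaving out 1 array turned the sign in Cck (-0.17 to 0.021), Pyy (-0.47 to 0.25), Gcg (-0.33 to 0.55), Insl5 (-0.59 to 0.26), Chga (-0.28 to 0.27), Chgb (-0.21 to 0.23), Gast (-0.0068 to 0.30), Ghrl (-0.023 to 0.21), Sst (-0.39 to 0.059), Gip (-0.12 to 0.077), Foxa2 (-0.042 to 0.20), Rxfp4 (-0.0096 to 0.35), Cd3e (-0.26 to 0.018), Cd79b (-0.0012 to 0.20), Cd68 (-0.029 to 0.038), Gfi1b (-0.21 to 0.0063), Dclk1 (-0.49 to 0.010), Sh2d6 (-0.028 to 0.15) and Epcam (-0.075 to 0.026). The cause of these turns was not tested.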
